A study of Mus musculus with 6 samples.

Results

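The piRNA pathway and the DNA methylation machinery were followed as a set of 36 genes in cultured germline stem cells of the mouse testis (SSCs) and in cells made from them that the labels call neural stem cell-like (iNSCs). The set was chosen by gene symbol: 26 genes of piRNA, Tudor and linked germline silencing proteins, and 10 genes of DNA methyltransferases, UHRF1, TET dioxygenases, TRIM28 and SETDB1. All 36 were found in the deposited table of 55401 genes, and all 36 passed the filter on low counts. Spermatogonial stem cells of 6-day-old male mice gave the 3 SSC libraries, and they had grown over STO feeder cells, a mouse fibroblast line, in 10% serum with LIF and bFGF (10 ng/mL of each) and with EGF and GDNF (20 ng/mL of each). The iNSC libraries (3) come from such cells after 6 days of transdifferentiation on laminin, with 1 µM retinoic acid in the first 24 h, followed by 10 µM SB431542, a blocker of TGF-beta type I receptors, and by bFGF (20 ng/mL), N2, B27 and 1% serum. No genotype, transgene or strain is given in the labels, and the groups differ in substrate and medium as well as in fate, which cannot be told apart here.

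Piwi-interacting RNAs, or piRNAs, are short RNAs that guide PIWI proteins to transposon transcripts in germ cells. Long precursors are unwound and cut at the surface of mitochondria, loaded onto PIWI proteins, trimmed and methylated at their ends, while Tudor-domain proteins hold the parts together in perinuclear granules. In the fetal male germline the pathway also directs DNA methylation to young transposons through the de novo methyltransferases DNMT3A, DNMT3B, DNMT3C and their cofactor DNMT3L. DNMT1 with UHRF1 then copies methylation at each replication, and TET enzymes oxidise it.

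Each library held 18058551 to 20156067 counts. Levels are given as FPKM, that is counts scaled to exon length and to the total of the library, and differences as log2 of iNSCs over SSCs from counts. A gene is said to have risen or fallen where the adjusted p was under 0.05 and the difference at least 1 on the log2 scale. By that rule 27.6% of all genes tested fell and 25.7% rose, beside which the marker counts here should be read. Of 14 germ cell markers, 13 fell, and their summed level was 772 to 807 FPKM in the SSC libraries and 56.9 to 62.9 FPKM in the iNSC libraries, where Nanos2 was at 0. Groups were taken from the sample titles, and the cell type label, which names the opposite group in every sample, was not used. Of 8 tested neural stem cell markers, 4 rose and 4 fell. Nes, Sox9, Prom1 and Vim rose, Prom1 from a mean of 0.0567 FPKM in SSCs to 28.0 FPKM in iNSCs. Sox2, Nr2e1, Pax6 and Msi1 fell, and Sox2 and Nr2e1 were at or near 0 in iNSCs. There 8 of 9 epithelial markers rose, with sums of 3009 to 3579 FPKM against 155 to 256 FPKM in SSCs, and 6 of 8 tested Sertoli cell markers rose and 1 fell, with sums of 221 to 274 FPKM over the list of 10 against 32.4 to 156 FPKM. The name iNSCs is used as a title only, and the part of these other cell types in the results below was not tested. Of 12 fibroblast and feeder markers, 5 rose, 1 fell and 6 were not called. They summed to 808, 706 and 72.1 FPKM in SSCs replicates 1, 2 and 3 and to 311 to 378 FPKM in iNSCs.

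The piRNA arm was almost lost in iNSCs: 26 of 26 genes fell and 0 rose, with a median log2 difference of -5.53. The methylation arm split: 5 of 10 fell (Dnmt3b, Dnmt3l, Dnmt1, Uhrf1 and Setdb1), Tet2 rose, and Dnmt3a, Tet1, Tet3 and Trim28 were not called, with a median of -1.26. Across all 17387 genes tested, 27.6% fell and 25.7% rose, and the median was -0.05. Of all calls 48.2% were higher with TMM scaling and 39.6% with library totals, so this balance depends on the scaling. A fall of at least 4 on the log2 scale, a size chosen after the values were seen, was found for 24 of the 26 piRNA genes and for 1 of the 10 methylation genes, and for 6.83% of all genes. Overlap of the groups was read on counts over the library total, without TMM scaling. On that scale the libraries of the groups did not overlap for 34 of the 36 genes, against 79.5% of all genes. The exceptions were Dnmt3a and Tet3. Tet1 was only just apart, at 0.21 FPKM in SSCs replicate 1 and 0.20 FPKM in iNSCs replicate 1. For all 26 piRNA genes every iNSC library lay below every SSC library on the same scale, as for 46.5% of all genes. In bulk RNA, fewer cells of a type and less RNA per cell cannot be told apart, which holds for every fall below.

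**Figure D1:**
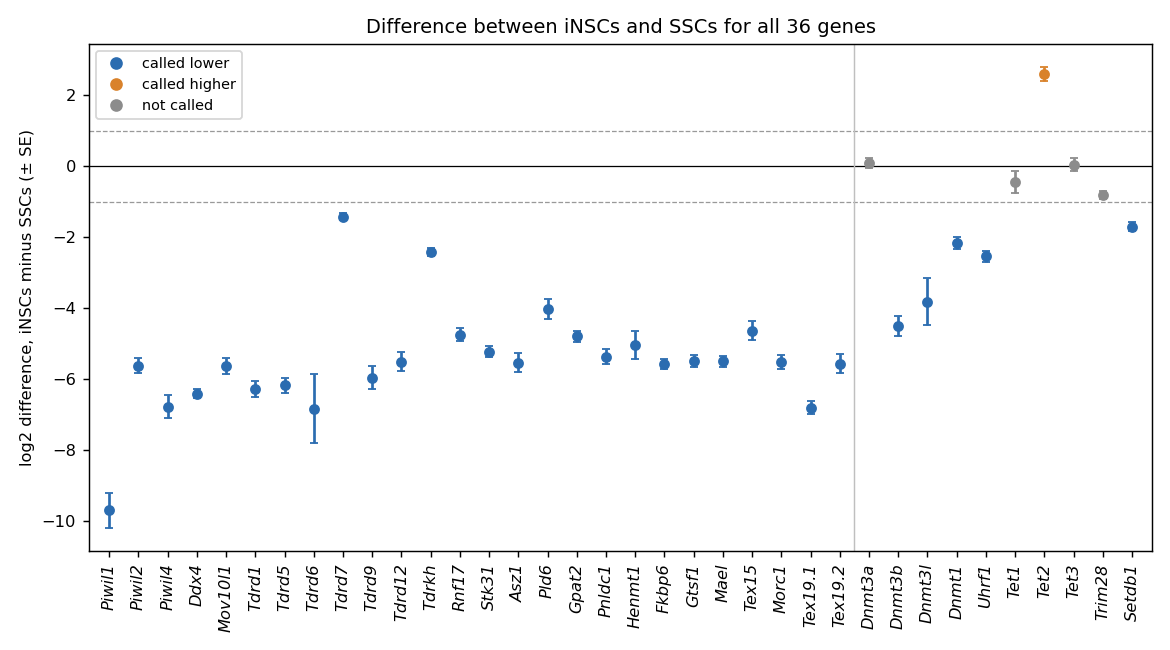
Log2 difference between iNSCs and SSCs with its standard error for the 36 genes, piRNA arm left and methylation arm right of the grey line. Dashed lines mark the size threshold of 1. All 26 piRNA genes lie below it, Tdrd7 (-1.42) and Tdrkh (-2.41) nearest to it, while the methylation genes run from -4.51 for Dnmt3b to 2.60 for Tet2.

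The promoters of the genes that fell together were read for shared letters. RefSeq gives a window of 300 bases, from 250 before to 50 after a transcription start, for 30 of the 36 genes on GRCm38.p6, and where a gene has several windows the one nearest to the start in the deposited table was taken. For 26 genes the window was at most 973 bases from that start, but for Piwil1, Tet1, Tet3 and Trim28 it was 17406 bases away or more, so it belongs to another start. The searches were for CACGTG, the E-box letters bound by MAX and its partners, for GCGCA, any base and GCGC in a row, the letters of an NRF1 site, and for GCGGGAA, letters of an E2F site, on both strands. These motifs were picked with the values known, and no match overlapped one of another motif. The E-box letters were found in 9 of 20 piRNA gene windows (45%) and in 0 of 10 methylation gene windows, against 7.67% of 20977 windows. The NRF1 letters were found in 10 of 20 (50%) and in 0 of 10, against 5.87%, and the E2F letters in 2 of 20 and 2 of 10, against 5.56%. Piwil1 is counted for the E-box, also among the CpG-rich windows below, and Trim28 for E2F, although their windows belong to another start. Both the E-box and the NRF1 letters stood in the windows of Mov10l1, Tdrd1, Stk31 and Pld6, against 0.777% of windows. Among the windows with at least 15 CpG the shares were 8 of 14 (57.1%) for the E-box and 9 of 14 (64.3%) for NRF1 in piRNA genes, against 11.6% and 12.6% of 8924 windows. When every window of a gene was read, 9 piRNA genes held the E-box and 11 the NRF1 letters, against 8.66% and 6.32% of genes, and 2 and 1 of the 10 methylation genes did.

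The windows of 5 piRNA genes that carry these letters are shown with the motif letters in capitals, together with both Tex19 paralogs, which differ in CpG content, and with Tet2, the member that rose. Each is written in the direction of transcription. Ddx4 lies at chr13:112652261-112652560 (minus strand), Mov10l1 at chr15:88982744-88983043 (plus), Tdrd1 at chr19:56825959-56826258 (plus), Mael at chr1:166238695-166238994 (minus), Stk31 at chr6:49395354-49395653 (plus), Tex19.1 at chr11:121145893-121146192 (plus), Tex19.2 at chr11:121118628-121118927 (minus) and Tet2 at chr3:133544341-133544640 (minus).
Ddx4: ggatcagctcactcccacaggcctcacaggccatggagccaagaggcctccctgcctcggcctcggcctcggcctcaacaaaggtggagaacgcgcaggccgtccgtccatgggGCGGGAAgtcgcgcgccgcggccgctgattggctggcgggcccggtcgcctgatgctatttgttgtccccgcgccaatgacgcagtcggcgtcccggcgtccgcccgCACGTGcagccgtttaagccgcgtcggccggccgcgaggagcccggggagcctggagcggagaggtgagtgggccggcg
Mov10l1: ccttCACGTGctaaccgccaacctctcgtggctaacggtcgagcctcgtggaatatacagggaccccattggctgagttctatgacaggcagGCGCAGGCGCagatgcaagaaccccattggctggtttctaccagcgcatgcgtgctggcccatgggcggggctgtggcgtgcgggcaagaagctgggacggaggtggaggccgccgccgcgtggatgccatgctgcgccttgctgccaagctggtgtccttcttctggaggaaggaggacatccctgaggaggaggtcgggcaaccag
Tdrd1: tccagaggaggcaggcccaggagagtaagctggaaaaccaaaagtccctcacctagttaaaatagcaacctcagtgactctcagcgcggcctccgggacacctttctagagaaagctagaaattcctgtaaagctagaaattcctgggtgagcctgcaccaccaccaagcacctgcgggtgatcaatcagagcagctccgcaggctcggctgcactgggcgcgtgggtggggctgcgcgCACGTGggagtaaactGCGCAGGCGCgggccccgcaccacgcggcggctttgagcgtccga
Mael: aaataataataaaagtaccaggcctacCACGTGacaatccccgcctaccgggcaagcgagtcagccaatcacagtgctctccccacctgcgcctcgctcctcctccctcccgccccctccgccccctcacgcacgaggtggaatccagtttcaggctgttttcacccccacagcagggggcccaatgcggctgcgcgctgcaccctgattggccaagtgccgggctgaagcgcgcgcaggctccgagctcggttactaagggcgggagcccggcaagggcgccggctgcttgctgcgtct
Stk31: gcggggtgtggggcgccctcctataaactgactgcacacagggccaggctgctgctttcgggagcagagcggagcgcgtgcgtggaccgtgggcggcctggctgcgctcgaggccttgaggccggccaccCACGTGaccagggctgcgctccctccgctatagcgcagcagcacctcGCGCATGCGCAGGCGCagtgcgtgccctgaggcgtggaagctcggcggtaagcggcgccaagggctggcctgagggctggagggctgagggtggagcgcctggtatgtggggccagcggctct
Tex19.1: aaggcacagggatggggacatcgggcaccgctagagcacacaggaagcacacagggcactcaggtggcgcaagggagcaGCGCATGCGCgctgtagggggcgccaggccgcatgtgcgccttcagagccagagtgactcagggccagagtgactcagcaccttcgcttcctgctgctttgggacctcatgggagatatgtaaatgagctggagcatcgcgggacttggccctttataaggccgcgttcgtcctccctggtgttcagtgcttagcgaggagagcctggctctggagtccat
Tex19.2: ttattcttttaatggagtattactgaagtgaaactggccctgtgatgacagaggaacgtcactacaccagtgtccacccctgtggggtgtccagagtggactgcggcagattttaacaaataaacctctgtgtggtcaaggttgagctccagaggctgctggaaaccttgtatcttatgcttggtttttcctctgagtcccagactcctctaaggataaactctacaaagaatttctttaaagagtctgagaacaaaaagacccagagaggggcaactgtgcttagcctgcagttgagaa
Tet2: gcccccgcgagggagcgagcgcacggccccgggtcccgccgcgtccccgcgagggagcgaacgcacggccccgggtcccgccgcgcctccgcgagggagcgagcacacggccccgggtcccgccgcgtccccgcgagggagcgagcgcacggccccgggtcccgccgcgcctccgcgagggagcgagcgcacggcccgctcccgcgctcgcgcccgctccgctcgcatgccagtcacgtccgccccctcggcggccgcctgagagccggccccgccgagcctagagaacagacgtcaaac
The Ddx4 window holds an E2F match upstream and an E-box close to the start, and it has 38 CpG. In Stk31 a pair of NRF1 matches overlap and are capitalised as 1 run. The Tex19.1 window holds 16 CpG and an NRF1 match, the Tex19.2 window 2 CpG and no match, and the Tet2 window 57 CpG and no match. These matches are letters in a window, and no binding or methylation was measured.

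The PIWI proteins themselves were led by Piwil2, whose product MILI is the PIWI protein of spermatogonia. Piwil2 (ENSMUSG00000033644, GRCm38 chromosome 14, 70372477 to 70429383, minus strand) stood at 96.0, 114 and 94.0 FPKM in the SSC libraries and at 1.48, 2.19 and 1.51 FPKM in the iNSC libraries, given here and below in the order of replicates 1, 2 and 3. The 3 SSC libraries lay far above the 3 iNSC libraries, and Piwil2 fell by 5.62 on the log2 scale (SE 0.21, adjusted p = 1.9e-06). Piwil4, the nuclear PIWI protein MIWI2 that directs methylation in fetal prospermatogonia, had 9.0, 9.80 and 7.87 FPKM in SSCs and 0.0900, 0.0900 and 0.0300 FPKM in iNSCs, and fell by 6.78 (SE 0.32). Piwil1, the MIWI protein of meiotic and later germ cells, had 4.94, 6.34 and 4.55 FPKM in SSCs. In iNSCs it was counted once in 3 libraries, in replicate 2, against 1287 counts in SSCs, a ratio of scaled counts of 1121 (95% interval 201 to 44330, counting error only). The log2 difference, -9.71 with all libraries, depended on that count and became -11.66 when iNSCs replicate 2 was left out. With 0 counts then left in iNSCs, -11.66 is no measured size.

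RNA helicases stood among the most abundant members in SSCs. Ddx4, the VASA helicase of the germ granule (ENSMUSG00000021758, GRCm38 chromosome 13, 112598333 to 112652475, minus strand), had 146, 146 and 134 FPKM in SSCs and 1.31, 1.58 and 1.30 FPKM in iNSCs. It fell by 6.41 on the log2 scale (SE 0.14, adjusted p = 4.7e-07), with little spread in either group. Mov10l1, the helicase that feeds piRNA precursors into processing (GRCm38 chromosome 15, 88982909 to 89055152, plus strand), had 109, 118 and 98.9 FPKM in SSCs and 1.40, 2.34 and 1.76 FPKM in iNSCs, and fell by 5.63 (SE 0.22). For both helicases the lowest SSC library lay far above the highest iNSC library.

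**Figure D2:**
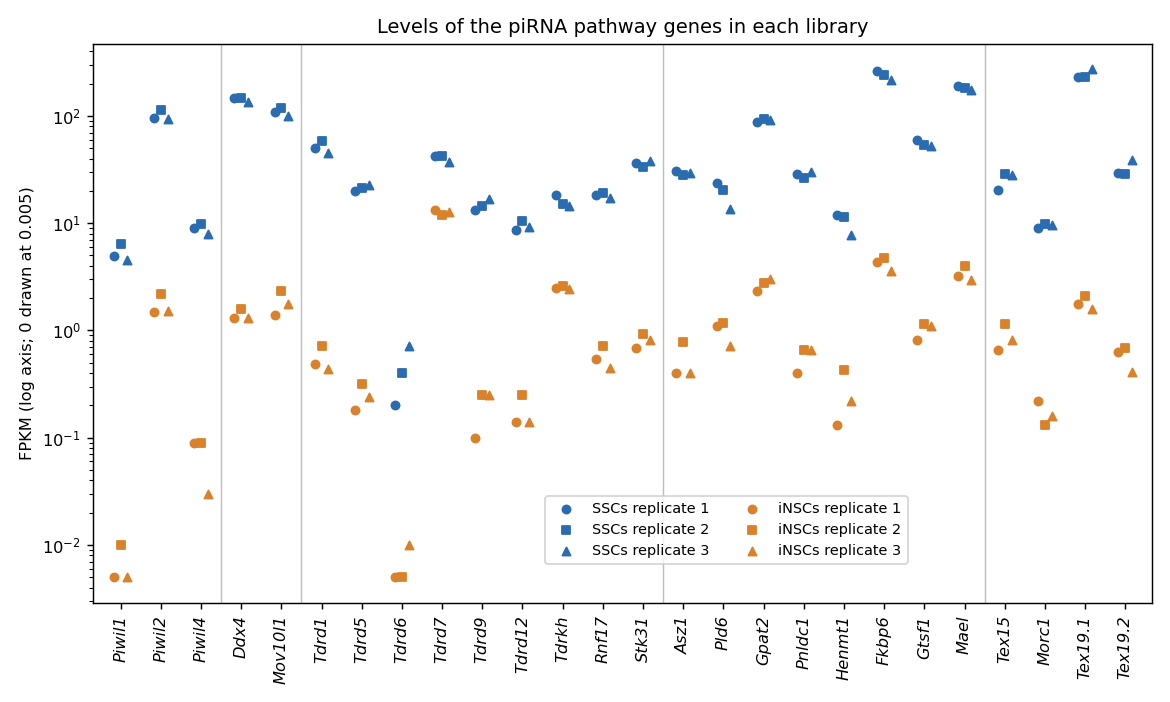
FPKM of the 26 piRNA arm genes in each of the 6 libraries on a log axis, blue for SSCs and orange for iNSCs, with a value of 0 drawn at 0.005. Grey lines part PIWI proteins, helicases, Tudor proteins, biogenesis factors and nuclear silencing factors. The groups do not overlap for any of these genes, and the gap is smallest for Tdrd7.

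The Tudor proteins, which bind methylated arginines on PIWI proteins, showed the widest range of falls. Tdrd1, a scaffold for MILI, had 49.9, 58.9 and 44.8 FPKM in SSCs and 0.490, 0.720 and 0.440 FPKM in iNSCs, and fell by 6.29 (SE 0.23). Stk31, a Tudor protein with a kinase-like domain, had 36.7, 33.2 and 38.4 FPKM in SSCs and 0.680, 0.930 and 0.810 FPKM in iNSCs, and fell by 5.23 (SE 0.17). Tdrd5, Tdrd9, Tdrd12 and Rnf17 lay between 8.69 and 22.6 FPKM in the SSC libraries and between 0.100 and 0.720 FPKM in the iNSC libraries. Among these, Tdrd5 acts on piRNA precursors and Tdrd9 is a helicase partner of MIWI2, and they fell by 6.18 and 5.96. Tdrd12 and Rnf17, both needed for the normal piRNA pool, fell by 5.51 and 4.75.

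Tdrd7 and Tdrkh kept a larger part of their level. Tdrd7, a germ granule protein that is also known from the eye lens (GRCm38 chromosome 4, 45965334 to 46034761, plus strand), had 42.6, 42.3 and 36.9 FPKM in SSCs and 13.2, 12.1 and 12.8 FPKM in iNSCs. It fell by 1.42 on the log2 scale (SE 0.10, adjusted p = 1.6e-05), and with 31.3% of its SSC mean FPKM it was the best kept of the 26. Tdrkh, which anchors PIWI proteins at mitochondria for trimming, had 18.2, 15.1 and 14.3 FPKM in SSCs and 2.48, 2.59 and 2.42 FPKM in iNSCs, and fell by 2.41 (SE 0.11). Tdrd6, a protein of the chromatoid body of spermatids, was low in SSCs as well, at 0.20, 0.40 and 0.720 FPKM. Its 173 counts in SSCs stood against 1 in iNSCs, a ratio of 151 (95% interval 26.7 to 5988). The log2 difference of -6.84 became -8.79 when iNSCs replicate 3, which held that count, was left out. With 0 counts then left in iNSCs, -8.79 is no measured size.

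Factors that make and finish piRNAs fell as a block of 8, by 4.02 to 5.58 on the log2 scale. Fkbp6, a co-chaperone that works with HSP90 in piRNA loading, was the most abundant of them, with 264, 241 and 218 FPKM in SSCs and 4.35, 4.70 and 3.62 FPKM in iNSCs, and fell by 5.58 (SE 0.14, adjusted p = 6.3e-07). Mael, a germ granule protein needed for transposon silencing, had 191, 183 and 175 FPKM in SSCs and 3.20, 3.99 and 2.95 FPKM in iNSCs, and fell by 5.50 (SE 0.15). The difference of each was many times the spread between replicates.

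Proteins of the outer mitochondrial membrane, where precursors are cut, belong to the same block. Gpat2, an acyltransferase family member that binds MILI, had 87.0, 93.6 and 91.0 FPKM in SSCs and 2.35, 2.79 and 3.04 FPKM in iNSCs, and fell by 4.8 (SE 0.15). Asz1, a tether of the granule to mitochondria, had 30.8, 27.9 and 29.1 FPKM in SSCs and 0.40, 0.780 and 0.40 FPKM in iNSCs, and fell by 5.54 (SE 0.26). Pld6, the mitochondrial protein known as Zucchini that cuts precursors, had 23.7, 20.5 and 13.6 FPKM in SSCs and 1.09, 1.17 and 0.710 FPKM in iNSCs. It fell by 4.02 (SE 0.28), the smallest fall of the block.

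End-processing enzymes and the slicing cofactor fell alike in size. Pnldc1, the trimmer of piRNA 3′ ends, had 28.6, 26.2 and 30.0 FPKM in SSCs and 0.40, 0.650 and 0.650 FPKM in iNSCs, and fell by 5.37 (SE 0.22). Henmt1, which methylates those ends, had 12.0, 11.5 and 7.79 FPKM in SSCs and 0.13, 0.430 and 0.220 FPKM in iNSCs, and fell by 5.04 (SE 0.39). Gtsf1, which promotes cleavage by PIWI proteins, had 59.8, 53.3 and 51.9 FPKM in SSCs and 0.810, 1.14 and 1.11 FPKM in iNSCs, and fell by 5.49 (SE 0.17).

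The nuclear and linked silencing factors all fell, and Tex19.1 had the highest SSC level among them. Tex19.1, a germline and placental protein that restrains retrotransposons (ENSMUSG00000039329, GRCm38 chromosome 11, 121146143 to 121148319, plus strand), had 229, 229 and 272 FPKM in SSCs and 1.77, 2.08 and 1.59 FPKM in iNSCs. It fell by 6.82 on the log2 scale (SE 0.18, adjusted p = 7.3e-07). Its neighbour and paralog Tex19.2 had 29.3, 28.5 and 38.6 FPKM in SSCs and 0.630, 0.680 and 0.410 FPKM in iNSCs, and fell by 5.56 (SE 0.26). How the authors assigned reads shared by these paralogs is not given in the sources used here, so the split between them is uncertain. Tex15, a nuclear partner of MIWI2 in transposon silencing, had 20.2, 29.0 and 28.4 FPKM in SSCs and 0.660, 1.15 and 0.810 FPKM in iNSCs, and fell by 4.64 (SE 0.27). Morc1, an ATPase needed for transposon repression in male germ cells, had 9.0, 9.86 and 9.52 FPKM in SSCs and 0.220, 0.13 and 0.160 FPKM in iNSCs, and fell by 5.52 (SE 0.21).

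What remained of the piRNA arm in iNSCs was a similar small part of the SSC level for most genes. Without Tdrd7 and Tdrkh, set aside after their values were seen, the other 24 genes stood at a median of 1.79% of their SSC mean FPKM, from 0.0632% for Piwil1 to 5.14% for Pld6. FPKM is scaled by library totals, which shifted the median log2 difference over all genes by -0.25 against TMM scaling. Percentages of FPKM are therefore mostly lower than the log2 differences given here would make them. In single libraries the median was 1.44% in iNSCs replicate 1, 2.14% in replicate 2 and 1.62% in replicate 3. By counts over the library total, iNSCs replicate 2 was the highest of the 3 libraries for 20 of the 26 genes, among them Pnldc1, for which replicates 2 and 3 were equal as printed FPKM. Examples were Henmt1 at 4.13% against 1.25% and 2.11%, and Asz1 at 2.67% against 1.37% in both other libraries. These rest on few counts, 6, 21 and 11 for Henmt1 and 21, 43 and 23 for Asz1 in replicates 1, 2 and 3. How often replicate 2 was the highest over all genes was not worked out, so the count of 20 is no result about the piRNA genes. The germ cell markers stood at a median of 1.59%, but ran from 0% for Nanos2 to 52% for Kit, with Etv5 at 33.7% and Stra8 at 28.1%. Replicates 1 and 2 were each the highest for 6 of these 14, replicate 3 for 1, and Nanos2 was at 0 in all 3. Replicate 2 was the highest for Dazl, at 3.75% against 2.64% and 2.72%, and replicate 3 for Dnd1, at 2.97% against 1.29% and 1.20%. Markers of spermatocytes and spermatids (9) summed to 7.0 FPKM in iNSCs replicate 2 against 4.98 and 4.65 FPKM in replicates 1 and 3, and to 85.3 to 98.6 FPKM in SSCs. The part of remaining germ cells in these values was not tested.

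**Figure D3:**
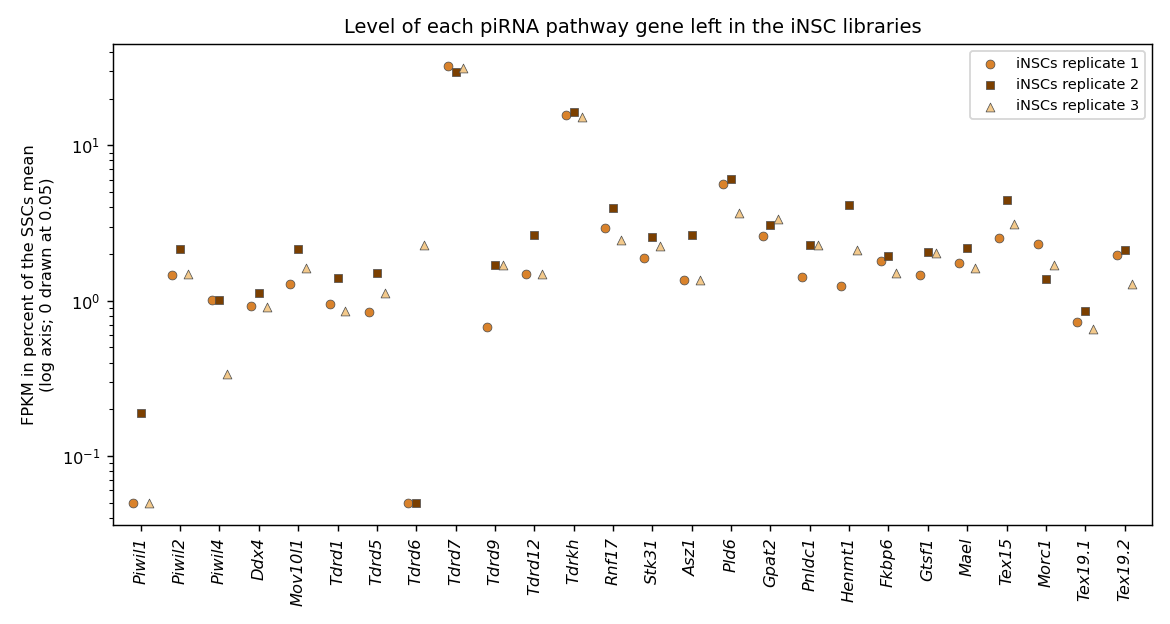
FPKM in each iNSC library as a percentage of the SSC mean for the 26 piRNA arm genes, on a log axis with 0 drawn at 0.05. Tdrd7 and Tdrkh stand above 10%, and the median of the other 24 is 1.79%. By counts over the library total, iNSCs replicate 2 (dark squares) is the highest for 20 of 26 genes.

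The de novo methyltransferases changed unequally. Dnmt3b (ENSMUSG00000027478, GRCm38 chromosome 2, 153649450 to 153687730, plus strand) had 27.1, 30.9 and 14.4 FPKM in SSCs and 0.80, 0.910 and 0.930 FPKM in iNSCs, the SSC libraries spreading widely but all above the iNSC libraries. It fell by 4.51 on the log2 scale (SE 0.29, adjusted p = 1.3e-05). Dnmt3l, the cofactor without catalytic activity of its own, had 5.32, 4.15 and 1.16 FPKM in SSCs and 0.210, 0.0900 and 0.320 FPKM in iNSCs, and fell by 3.82 (SE 0.66, adjusted p = 0.0013). Dnmt3a, the other active enzyme (GRCm38 chromosome 12, 3806007 to 3914443, plus strand), had 9.03, 9.59 and 6.43 FPKM in SSCs and 7.42, 7.27 and 7.44 FPKM in iNSCs. Its groups overlapped, with a log2 difference of 0.08 (SE 0.14, adjusted p = 0.63) that was -0.18 with library totals in place of TMM scaling and -0.068 without SSCs replicate 3. Dnmt3c, the rodent copy of Dnmt3b that acts in fetal male germ cells and was looked up after the values were seen, had 8 counts in SSCs and 13 in iNSCs, too few to be tested, and reads it shares with Dnmt3b may have been split.

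As a result of these unequal changes the make-up of the family was different in the groups. Dnmt3b held 65.4%, 69.2% and 65.6% of the summed FPKM of Dnmt3a, Dnmt3b and Dnmt3l in SSCs replicates 1, 2 and 3, and 9.49%, 11% and 10.7% in iNSCs replicates 1, 2 and 3. Dnmt3a held 21.8%, 21.5% and 29.2% in SSCs and 88.0%, 87.9% and 85.6% in iNSCs. The summed level was 41.4, 44.6 and 22.0 FPKM in SSCs and 8.43, 8.27 and 8.69 FPKM in iNSCs, so the SSC libraries spread over a wider range than the iNSC libraries did.

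**Figure D4:**
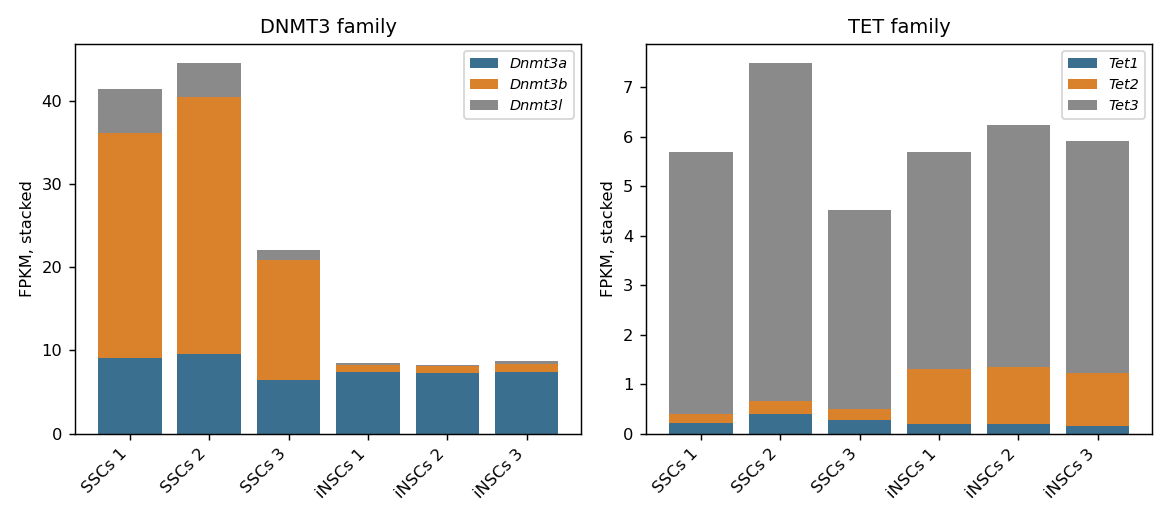
Stacked FPKM of Dnmt3a, Dnmt3b and Dnmt3l (left) and of Tet1, Tet2 and Tet3 (right) in each library. Dnmt3b makes up most of the bar in the SSC libraries and Dnmt3a in the iNSC libraries, while Tet3 makes up most of the TET bar in all 6 libraries and the Tet2 share is larger in iNSCs.

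SSCs replicate 3 stood apart in the methylation arm. Its Dnmt3l level was 24.5% and its Dnmt3b level 49.9% of the mean of SSCs replicates 1 and 2, while Tet3 was at 66.3% and Dnmt3a at 69.1%. Dnmt1 and Uhrf1 were at 124% and 120%. In the same library Stra8, Sohlh1 and Kit, genes of spermatogonial differentiation, were at 31.4%, 48.8% and 67.1%, and Gfra1 and Id4, genes of the stem cell state, were at 187% and 278%. Zbtb16 and Lin28a, both of undifferentiated spermatogonia, were at 142% and 55.7%, so these marker genes did not all move one way. Of the fibroblast and feeder markers, the collagen gene Col1a1 was at 12.9%. Col1a2, Col3a1, Thy1, Pdgfrb, Postn, Fap, Acta2 and Fbn1 were also lowest in this SSC library by FPKM. Pdgfra, Dcn and Lum were highest in it, so the feeder markers did not all move one way either. The part of spermatogonial stage or of feeder RNA in the Dnmt3b and Dnmt3l levels was not tested. Without this library Dnmt3l fell by 4.24 and Dnmt3b fell by 4.77 on the log2 scale. Most piRNA genes were even across the SSC libraries, with a median coefficient of variation of 9.80%, the highest values being 59.6% for the low Tdrd6 and 26.9% for Pld6.

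The maintenance pair fell, by sizes between those of Tdrd7 and Dnmt3l. Dnmt1, which copies methylation onto new DNA (ENSMUSG00000004099, GRCm38 chromosome 9, 20907209 to 20959888, minus strand), had 82.0, 105 and 116 FPKM in SSCs and 19.4, 18.8 and 19.0 FPKM in iNSCs. It fell by 2.16 on the log2 scale (SE 0.17, adjusted p = 2.9e-05). Uhrf1, which brings DNMT1 to hemimethylated sites, had 140, 178 and 191 FPKM in SSCs and 24.5, 25.2 and 23.9 FPKM in iNSCs, and fell by 2.54 (SE 0.16, adjusted p = 1.3e-05). In iNSCs the level of Dnmt1 per length was still above that of Dnmt3a in every library. Of 15 genes of S phase, 10 fell and 0 rose, with a median of -2.09 and a range of -2.73 to 0.71. Across all genes 27.6% fell and 25.7% rose. Pcna, Chaf1b, Tyms, Rrm2 and Gins2 were not called, with Rrm2 at 0.71 and Gins2 at 0.64. The summed S phase level was 868, 931 and 1076 FPKM in SSCs replicates 1, 2 and 3 and 241 to 258 FPKM in iNSCs. SSCs replicate 1 was the lowest and replicate 3 the highest SSC library for Dnmt1, Uhrf1 and the S phase sum, and the part of proliferation in the falls was not tested.

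Among the TET dioxygenases, Tet2 was the member that rose. Tet2 (ENSMUSG00000040943, GRCm38 chromosome 3, 133463679 to 133545139, minus strand) had 0.180, 0.260 and 0.210 FPKM in SSCs and 1.11, 1.16 and 1.07 FPKM in iNSCs. Every iNSC library lay above every SSC library, and the log2 difference was 2.60 (SE 0.20, adjusted p = 2.7e-05). Tet3, the TET enzyme with the highest level in both groups, had 5.31, 6.85 and 4.03 FPKM in SSCs and 4.38, 4.88 and 4.69 FPKM in iNSCs, with overlapping groups and a log2 difference of 0.04 (SE 0.18, adjusted p = 0.84), or -0.22 with library totals and -0.12 without SSCs replicate 3. Tet1 was low, at 0.210, 0.390 and 0.280 FPKM in SSCs and 0.20, 0.190 and 0.15 FPKM in iNSCs, with a log2 difference of -0.45 (SE 0.31, adjusted p = 0.22). Tet2 held 3.16%, 3.47% and 4.65% of the summed TET FPKM in SSCs replicates 1, 2 and 3 and 19.5%, 18.6% and 18.1% in iNSCs, while Tet3 held 89.2% to 93.2% and 77.0% to 79.4%.

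TRIM28 is the corepressor that zinc finger proteins bring to transposons and imprinted sites, and it recruits the histone methyltransferase SETDB1. Trim28 had 173, 169 and 172 FPKM in SSCs and 79.6, 79.4 and 86.7 FPKM in iNSCs. The groups were clearly apart, with a log2 difference of -0.81 (SE 0.10, adjusted p = 0.0003), which did not reach the size threshold and was -1.07 with library totals, past it. Setdb1 had 30.6, 33.5 and 37.0 FPKM in SSCs and 8.59, 8.80 and 8.59 FPKM in iNSCs, and fell by 1.71 (SE 0.12, adjusted p = 2.1e-05). On the opposite strand Cers2 overlaps Setdb1 and has 90.4% of its counts, so without knowledge of the strand setting reads of both genes may be mixed. For no other member did an overlapping gene hold more than 10% of its counts.

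**Figure D5:**
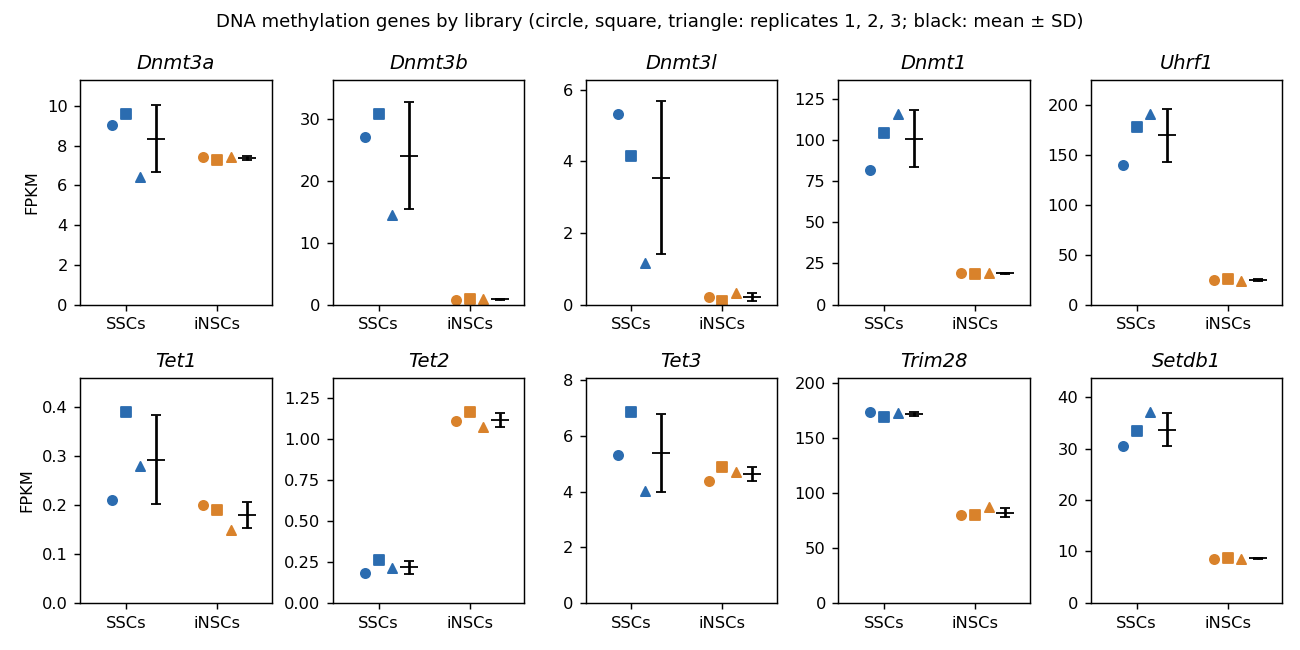
FPKM of the 10 methylation arm genes by library, with circles, squares and triangles for replicates 1, 2 and 3 and black marks for the mean and SD of each group of 3. Dnmt3b, Dnmt3l, Dnmt1, Uhrf1, Trim28 and Setdb1 are lower and Tet2 higher in iNSCs, Dnmt3a and Tet3 overlap, and the triangle of SSCs replicate 3 is low for Dnmt3b and Dnmt3l.

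Other genes of these pathways, listed by role, moved in both directions. Of 14 further piRNA genes 12 could be tested, and 5 fell and 1 rose, with a median of -0.76, against 27.6% lower and 25.7% higher among all genes. The largest falls were those of Spocd1, Btbd18 and Exd1. Spocd1, a MIWI2-linked factor of transposon methylation, had 5.22, 5.22 and 3.78 FPKM in SSCs and 0.020, 0.0300 and 0.0500 FPKM in iNSCs and fell by 6.88. Btbd18, a nuclear factor of meiotic piRNA transcription, fell by 4.93, and Exd1, a partner of TDRD12, by 3.37. Mybl1, the transcription factor A-MYB of meiotic piRNA clusters, rose, with group means of 0.877 FPKM in SSCs and 1.76 FPKM in iNSCs and a log2 difference of 1.25 (SE 0.18), and by less than the threshold with library totals in place of TMM scaling.

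Of 21 further methylation genes, 6 fell and 6 rose, with a median of 0.34, also with Dppa3 at its bound. These counts are near the shares of all genes, 27.6% lower and 25.7% higher, and are no result about the list. Dppa3, which shields methylation in early embryos, was counted 166 times in SSCs and 0 times in the iNSC libraries, which makes it at least 48.2-fold lower when set against 3 counts over the group. Cdca7 and Hells, partners in a chromatin remodelling complex that aids methylation, fell by 3.84 and 3.55. Idh2 and Idh1, which make the 2-oxoglutarate that TET enzymes use, rose by log2 differences of 3.70 and 2.38, and Gadd45b, linked to demethylation, by 2.14. Of 23 further silencing genes, 11 fell and 1 rose, with a median of -0.89, against the same 27.6% and 25.7% of all genes. Suv39h2 and Suv39h1, histone methyltransferases, fell by 3.46 and 1.90, and Mphosph8, the chromodomain subunit of the HUSH complex, by 2.49. Zfp809, a zinc finger protein that guides TRIM28 to retroviral sequences, rose by a log2 difference of 2.03. Also in this list are genes of the repressor complex that binds E-box and E2F letters at germline promoters, singled out here after their values were seen: Mga fell by 1.61, E2f6 by 1.39, L3mbtl2 by 1.39, Pcgf6 fell by 1.38, and Max was at 0.12 (adjusted p = 0.49).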

How the data were processed

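Polyadenylated RNA was sequenced with a stranded kit, per the labels' protocols. The authors deposited raw read counts and FPKM values per Ensembl gene. FPKM recalculated here from the counts matched the deposited values within 0.0051 for 100% of them. HISAT2, DESeq2 and mm9 are named in the submitters' processing notes, whereas no source used here gives the counting tool or its strand setting. The table's coordinates are those of GRCm38: 54821 of the 55141 identifiers found in GENCODE M21 had the same span, as had 34 of the 36 members (not Piwil4 and Henmt1). Under R 4.3.3, edgeR 4.0.16 was run on the counts of all genes, with TMM scaling, a minimum count of 10 (total 15) and the two-sided quasi-likelihood test, with Benjamini-Hochberg adjustment over 17387 genes. Each SE is the absolute log2 difference divided by the square root of that test's F value. The fit was tested on simulated data. FPKM means ± SD use 3 libraries per group. Scaling by library totals shifted the median log2 difference by -0.25. At this depth 3 counts correspond to 0.149 to 0.166 CPM. Intervals (95%, Clopper-Pearson) cover counting error only. Nothing in the labels ties replicates to different cultures or mice, and the p-values therefore reflect only how these libraries vary, possibly for technical reasons. The alternatives were DESeq2 1.42.0, library totals, no filter, a replicate block, each library left out, and no size threshold. Members, lists and motifs were chosen with earlier results of these data known. All members are named, and of each further list up to 3 called genes per direction with the largest difference. Mga, E2f6, L3mbtl2, Pcgf6 and Max of the silencing list are named outside this rule. Promoter windows are from RefSeq.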

Additional observations from a re-analysis of the deposited data

How the results depend on the processing

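All 26 piRNA genes fell under each of the alternatives run, and of the methylation genes 5 or 6 fell and 1 rose. Of 360 member values under 10 alternatives, 355 kept their direction and their side of the threshold. Dnmt3a changed sign with library totals (-0.18) and, among the fits that left out 1 library (-0.068 to 0.20), without SSCs replicate 3. Tet3 did likewise, at -0.22 and at -0.12 to 0.26. Neither passed the test in any of these fits. Trim28 passed the size threshold with library totals (-1.07). Leaving out the library that held the one count in iNSCs moved Piwil1 to -11.66 and Tdrd6 to -8.79. With 0 iNSC counts then left, neither value is a measured size. In the further lists, without a size threshold 8 piRNA genes fell and 2 rose. There 8 methylation genes fell and 10 rose, and 12 silencing genes fell and 3 rose. With library totals 0 further piRNA genes rose. Leaving out 1 library gave 1 to 2 risers among the silencing genes, with 2 without SSCs replicate 3 or iNSCs replicate 3. Correlations of deviations from the group means were 0.0907, 0.0496 and -0.0150 between samples of the same replicate numbers 1, 2 and 3. Between unlike numbers they ran from -0.0959 to 0.0535. Deviations from a mean of 3 libraries are tied to each other, so these values cannot decide whether the numbers pair the samples. With the replicate block 9171 genes were called in place of 9267, 26 piRNA genes and 5 methylation genes fell, 1 methylation gene rose, and no member's call changed. DESeq2 called 9280 genes. Depth limits Piwil1 and Tdrd6, with 1 count each over the iNSC libraries, and Piwil4, with 9, 9 and 3 counts there.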

Other observations

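The balance within small families was read in each library as a share of summed FPKM. Among the PIWI genes, Piwil2 held 87.3%, 87.6% and 88.3% in SSCs replicates 1, 2 and 3 and 94.3%, 95.6% and 98.1% in iNSCs replicates 1, 2 and 3, where the sums were 1.57, 2.29 and 1.54 FPKM. Piwil4 held 7.39% to 8.19% in SSCs and 1.95% to 5.73% in iNSCs. Between the Tex19 paralogs, Tex19.2 held 11.4%, 11.1% and 12.4% in SSCs and 26.3%, 24.6% and 20.5% in iNSCs, at sums of 2.00 to 2.76 FPKM. These shares were looked at after the values were seen and were not tested.

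Several members ranked high among all genes of the table in SSCs. Fkbp6 was exceeded by 0.182% to 0.222% of genes and Tex19.1 by 0.163% to 0.249% in the SSC libraries. In the iNSC libraries 15% to 16.5% of genes were higher than Fkbp6 and 19.7% to 20.8% higher than Tex19.1. Trim28 was exceeded by 0.303% to 0.366% in SSCs and by 1.03% to 1.15% in iNSCs, so it stayed among the more abundant transcripts of both groups.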
